A study of Drosophila melanogaster with 10 samples.

Results

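The translation initiation factor genes were taken as the probe sets that carry a single gene symbol starting with eIF, with the brightest probe set standing for each gene. This gave 27 genes (30 probe sets) of 12401 genes with a single symbol on the array. The material was DL1, a line of Drosophila melanogaster cells kept in culture, after RNA interference by bathing in double-stranded RNA (dsRNA). The nbr RNAi group received dsRNA against nbr (CG9247) and the control RNAi group dsRNA against renilla, which is no fly gene. Both were grown at 25 °C and collected 5 days after bathing, with 5 independent replicates per group and 1 Affymetrix Drosophila_2 array per replicate, 10 arrays in all. Values are log2 levels per probe set after GCRMA, which models background from the probes' base content and puts the arrays on a common scale. The question of the comparison is how mRNA levels differ after loss of nbr. The model is limited to 1 cultured line and to a partial loss of nbr mRNA.

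Initiation factors bring the ribosome to the start codon of an mRNA. eIF2 delivers the initiator tRNA and is recharged by its exchange factor eIF2B, eIF3 is a large scaffold on the small ribosomal subunit, and the eIF4 factors recognise and unwind the capped 5′ end of the mRNA. nbr encodes Nibbler, an enzyme known for shortening microRNAs from their 3′ end, and microRNAs repress their targets partly at this initiation step.

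The targeted gene fell in nbr RNAi, and most markers of plasmatocytes were detected. The nbr probe set read 8.48, 7.56, 8.12, 7.97 and 8.84 on nbr RNAi arrays 1 to 5, against 11.44, 11.48, 11.38, 11.16 and 11.28 on control RNAi arrays 1 to 5. The groups are far apart, and the remaining level was highest on nbr RNAi array 5. The log2 fold change was -3.16, its 95% interval -3.61 to -2.71 (limma, adjusted p = 0.000146), and -3.32 without that array. Plasmatocytes are fly blood cells that engulf debris, and of their 14 measured markers 12 had a mean level of at least 4, the filter used here, while Sr-CI and Col4a1 did not. All 7 muscle, 7 fat body, 6 germline and 9 testis markers were under the filter, as were 5 of 6 neuron markers, with elav at a mean log2 level of 8.70 over the 10 arrays. Correlations between arrays, across probe sets, were lowest for nbr RNAi array 5 (median 0.982, against 0.994 to 0.997 for the other 9 arrays). The plot of fold changes shows each of the 24 estimates without it as well.

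No initiation factor gene was called as different between nbr RNAi and control RNAi. Of the 27 genes, 24 had a mean level of at least 4 and were tested, and the remaining 3 are paralogs of eIF4E at the bottom of the scale. Limma called 0 of the 24 at a Benjamini-Hochberg adjusted p under 0.05, against 0.0259% of all 7729 probe sets tested (0.0129% higher and 0.0129% lower in nbr RNAi). An unadjusted p under 0.05 was reached by 0 of 24, against 5.87% of all probe sets tested, and an unmoderated test gave 0 on both counts. The nbr RNAi and control RNAi values did not separate for any of the 24 genes, while they did for 0.97% of all probe sets tested. The smallest adjusted p in limma was 0.854. Bulk RNA cannot tell a change in the number of cells of a kind from a change in RNA per cell, and a common scale for all arrays hides a change in total RNA.

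The size of change that these arrays could have missed is small for most of the genes. The 95% interval lay within a 1.5-fold change in either direction for 22 of the 24 genes, against 92.9% of all probe sets tested, and within a 2-fold change for 24 of 24, against 98%. It lay within a 1.2-fold change for 21 of 24, against 62.6% of all. The exceptions at 1.5-fold were eIF4E-6 and eIF4G2, and at 1.2-fold also eIF2B-beta. The median log2 fold change of the 24 genes was -0.015, with the median over all probe sets tested at 0.0056. The log2 fold change was below 0 for 18 of 24 genes, against 47.1% of all probe sets tested, and it was below 0 for 17 of 24 after quantile normalization and for 18 of 24 after median centring. Without nbr RNAi array 5 the count was 14 of 24, against 47.7% of all. It was also 14 of 24 without control array 3 (44.5% of all) and without control array 4 (44.4% of all). Leaving out any other array gave 15 to 17 of 24.

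**Figure D1:**
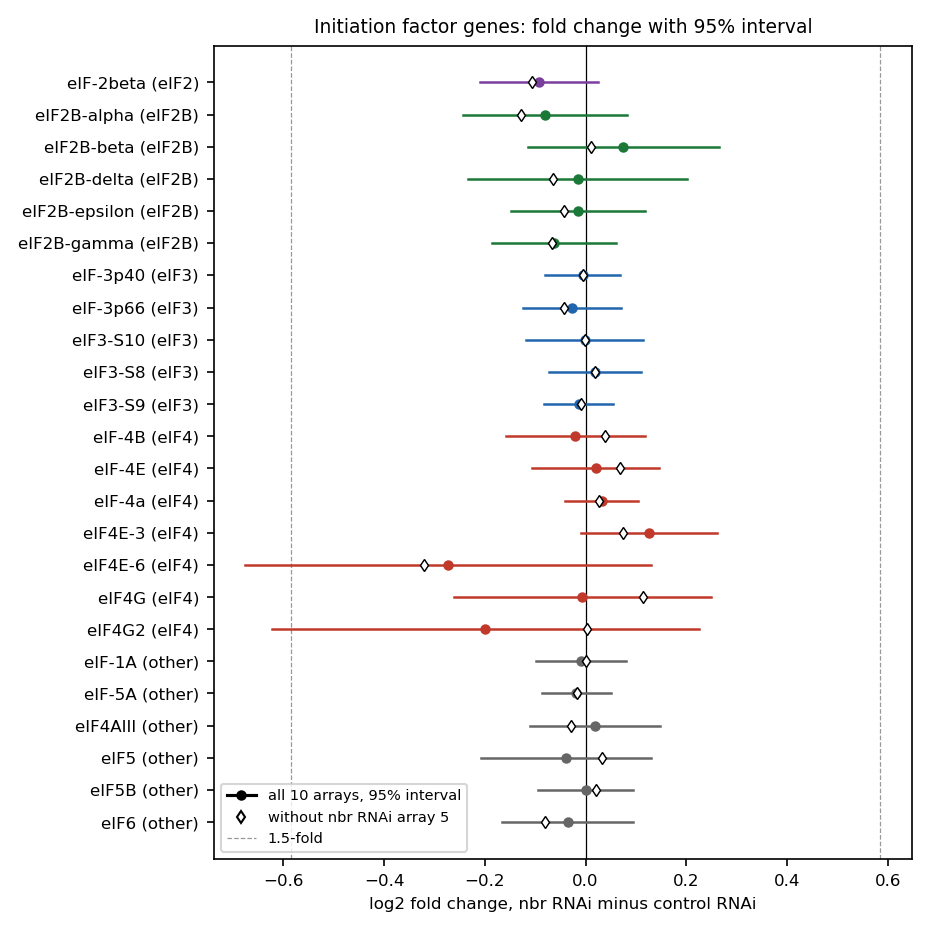
Log2 fold change (nbr RNAi minus control RNAi, x axis) of the 24 tested initiation factor genes, grouped by complex from top to bottom. Filled points with bars are the limma estimate and its 95% interval over 10 arrays, open diamonds the estimate without nbr RNAi array 5, and dashed lines a 1.5-fold change. All 24 intervals include 0, and those of eIF4E-6 and eIF4G2 cross the 1.5-fold line on the lower side.

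eIF2 is represented by its beta subunit, and the gene did not pass. eIF-2beta (FlyBase FBgn0004926) read 13.36, 13.35, 13.38, 13.36 and 13.44 on nbr RNAi arrays 1 to 5, against 13.51, 13.35, 13.58, 13.54 and 13.37 on control RNAi arrays 1 to 5. The nbr RNAi values lie close together inside the lower part of the control range. Means were 13.38 ± 0.035 in nbr RNAi and 13.47 ± 0.11 in control RNAi (SD, n = 5 each), and the log2 fold change was -0.092, its 95% interval -0.21 to 0.025. The adjusted p in limma was 0.866, and a 2-sided exact permutation test over all splits of the arrays gave p = 0.119. The genes of the alpha and gamma subunits, under these names, were not analysed here.

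eIF2B, the exchange factor that reloads eIF2 with GTP, was measured through all of its 5 subunit genes and none passed. The median log2 fold change of the 5 genes was -0.016, with 4 below 0 and a range of -0.081 to 0.075. eIF2B-gamma, a subunit of the catalytic part, read 12.14, 12.29, 12.18, 12.21 and 12.23 on nbr RNAi arrays 1 to 5, against 12.25, 12.23, 12.41, 12.35 and 12.14 on control RNAi arrays 1 to 5. Its nbr RNAi values lie within the control range, and the log2 fold change was -0.062 with a 95% interval of -0.19 to 0.061 (limma, adjusted p = 0.899). eIF2B-alpha, a subunit of the regulatory part, read 11.25, 11.35, 11.33, 11.09 and 11.49 on nbr RNAi arrays 1 to 5, against 11.45, 11.33, 11.47, 11.40 and 11.27 on control RNAi arrays 1 to 5. Its nbr RNAi values spread to both sides of the control range, and the log2 fold change was -0.081 with a 95% interval of -0.24 to 0.082 (limma, adjusted p = 0.899). The catalytic subunit gene eIF2B-epsilon was at -0.015 and eIF2B-delta at -0.016, while eIF2B-beta was at 0.075. Without nbr RNAi array 5, eIF2B-beta was at 0.010 and eIF2B-alpha at -0.13. The adjusted p in limma lay between 0.899 and 0.990 for these 5 genes.

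On 4 of the 10 arrays the 5 eIF2B subunit genes deviated with the same sign, and on the other 6 arrays they were split. On nbr RNAi array 5 all 5 genes exceeded their mean over nbr RNAi arrays 1 to 4, by 0.026 to 0.32 on the log2 scale, with a median of 0.24. On control array 3 all 5 were above the mean of the other control arrays, with a median of 0.17, and on control array 5 all 5 were below it, with a median of -0.14. On nbr RNAi array 1 all 5 lay below their mean over nbr RNAi arrays 2 to 5, with a median of -0.084. Over all probe sets tested, the medians on these arrays were 0.066, 0.019, -0.036 and -0.0072. Both signs occur within each treatment, and co-movement of the genes was not tested. Without nbr RNAi array 5 the median log2 fold change of the 5 genes was -0.064, without control array 3 it was 0.029 and without control array 5 it was -0.093.

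The eIF3 genes had fold changes close to 0. The rule took 5 subunit genes, with log2 fold changes from -0.027 to 0.019 and a median of -0.0058. eIF-3p66, the gene of the d subunit, which binds the cap of some mRNAs in mammals, had the smallest p of the complex. It read 14.04, 14.09, 14.02, 13.99 and 14.11 on nbr RNAi arrays 1 to 5, against 14.06, 14.09, 14.14, 14.12 and 13.97 on control RNAi arrays 1 to 5, and the groups cover nearly the same range. Its log2 fold change was -0.027 with a 95% interval of -0.12 to 0.070 (limma, adjusted p = 0.953). eIF3-S8, the gene of the c subunit, read 12.75, 12.81, 12.82, 12.69 and 12.77 on nbr RNAi arrays 1 to 5, against 12.67, 12.75, 12.79, 12.80 and 12.74 on control RNAi arrays 1 to 5. Here too the groups overlap, and the log2 fold change was 0.019 with a 95% interval of -0.072 to 0.11 (limma, adjusted p = 0.964). eIF3-S10 (subunit a) was at -0.0019, eIF3-S9 (subunit b) at -0.014 and eIF-3p40 (subunit h) at -0.0058.

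More eIF3 subunits stand on the array under other names, and they too did not pass. Together with the 5 above, 13 tested subunit genes had a median log2 fold change of -0.014 and a range of -0.088 to 0.019, with 11 below 0. CG9769, the f subunit (eIF3f1 in RefSeq), was at -0.088 with a 95% interval of -0.21 to 0.033. Tango7, the m subunit, was at -0.076 with an interval of -0.19 to 0.035. The adjusted p in limma was 0.876 for both. Int6 (subunit e) was at -0.025, Trip1 (subunit i) at -0.023 and Adam (subunit j) at -0.0022. The second gene copies eIF3d2, eIF3f2 and eIF3g2 had mean log2 levels of 2.11, 2.14 and 2.13 over the 10 arrays, at the bottom of the scale. Within groups, the median standard deviation was 0.058 for the 13 genes, against 0.12 for all probe sets tested. It was 0.059 for the 8 tested genes of translation elongation, release or recycling, so a low spread was not particular to eIF3. On control array 5 all 13 eIF3 genes were below the mean of the other control arrays, with a median of -0.092. Of the 24 initiation factor genes 17 were below it there, as were 4662 of all 7729 probe sets tested, whose median was -0.036.

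The eIF4 group differed most among its members, and its spread between nbr RNAi arrays was smaller without array 5. Of 10 genes, 7 were tested, with log2 fold changes from -0.27 to 0.13 and a median of -0.0070, 4 of them below 0. Without nbr RNAi array 5 the log2 fold changes still ran from -0.32 to 0.11. eIF-4a, the DEAD-box helicase gene of the cap complex, read 14.95, 14.91, 14.93, 14.94 and 14.96 on nbr RNAi arrays 1 to 5, against 14.88, 14.93, 14.89, 14.88 and 14.94 on control RNAi arrays 1 to 5. Its groups overlap, and its log2 fold change was 0.032 with a 95% interval of -0.040 to 0.10 (limma, adjusted p = 0.909). The median standard deviation of the 7 genes was 0.14 in nbr RNAi and 0.028 in control RNAi, and 0.061 in nbr RNAi without array 5. For all probe sets tested these medians were 0.12, 0.093 and 0.080.

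Among the eIF4E paralogs, the cap-binding proteins, 3 of 6 genes were above the filter. eIF-4E (eIF4E1 in RefSeq), the general cap-binding factor, read 13.60, 13.57, 13.66, 13.52 and 13.35 on nbr RNAi arrays 1 to 5, against 13.54, 13.50, 13.51, 13.51 and 13.55 on control RNAi arrays 1 to 5. The nbr RNAi values lie on both sides of a narrow control range, with array 5 lowest. The log2 fold change was 0.020 with a 95% interval of -0.11 to 0.15 (limma, adjusted p = 0.971), and 0.069 without array 5. Affymetrix marks this probe set as one that can match several transcripts, as it does those of eIF2B-delta, eIF3-S9, eIF-4a, eIF-5A and eIF5.

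eIF4E-3, a paralog known for its role in the fly testis, came nearest to a difference and did not pass. It read 8.93, 8.78, 8.90, 8.78 and 9.10 on nbr RNAi arrays 1 to 5, against 8.77, 8.77, 8.75, 8.76 and 8.80 on control RNAi arrays 1 to 5. The groups overlap only at the lower nbr RNAi values, and 3 of 5 nbr RNAi arrays lie above every control array. Means were 8.90 ± 0.13 in nbr RNAi and 8.77 ± 0.019 in control RNAi (SD, n = 5 each). The log2 fold change was 0.13 with a 95% interval of -0.0094 to 0.26, an unadjusted p of 0.0651 and an adjusted p of 0.854 in limma. The 2-sided exact permutation test gave an unadjusted p of 0.0476, the only one under 0.05 among the 24 genes (4.2%). The share over all probe sets tested is not given for this test, so the count singles out no gene. Without nbr RNAi array 5, where the gene was highest, the log2 fold change was 0.074.

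eIF4E-6 was the most variable paralog in both treatments. It read 6.80, 7.54, 6.92, 6.84 and 7.26 on nbr RNAi arrays 1 to 5, against 7.42, 7.22, 7.87, 7.16 and 7.06 on control RNAi arrays 1 to 5. The groups overlap, although 3 of 5 nbr RNAi arrays lie below every control array. Means were 7.07 ± 0.32 in nbr RNAi and 7.34 ± 0.32 in control RNAi (SD, n = 5 each), a log2 fold change of -0.27 and a 95% interval of -0.68 to 0.13 (limma, adjusted p = 0.876). The value moved to -0.14 without control array 3 and to -0.39 without nbr RNAi array 2. The levels of eIF4E-3 and eIF4E-6 stood above the filter in both treatments while all 9 testis markers, at 2.07 to 2.35, were under it.

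The remaining paralogs eIF4E-4, eIF4E-5 and eIF4E-7 read 1.95 to 2.20 on the nbr RNAi arrays and 1.92 to 2.21 on the control RNAi arrays. Values this low lie at the bottom of the scale and set no limit on a change. eIF4EHP (4EHP in the files), the related cap-binding protein that blocks initiation on selected mRNAs, read 2.48 to 2.85 in nbr RNAi and 2.53 to 3.23 in control RNAi, also under the filter.

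The measured eIF4E paralogs were not shown to change relative to one another. The 3 pairs were compared within arrays, as the difference of log2 levels, with 2-sided exact permutation tests adjusted over the 3 pairs. The largest difference was that of eIF4E-3 minus eIF4E-6, which averaged 1.83 ± 0.34 in nbr RNAi and 1.43 ± 0.33 in control RNAi (SD, n = 5 each). It was 0.40 higher in nbr RNAi with a 95% interval of -0.095 to 0.89 (exact permutation p = 0.103, adjusted p = 0.310). The difference eIF-4E minus eIF4E-6 was 0.29 higher in nbr RNAi with an interval of -0.23 to 0.81 (exact p = 0.246, adjusted p = 0.369). The difference eIF-4E minus eIF4E-3 changed by -0.11 with an interval of -0.34 to 0.13 (exact p = 0.413, adjusted p = 0.413), and by -0.0054 without nbr RNAi array 5.

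**Figure D2:**
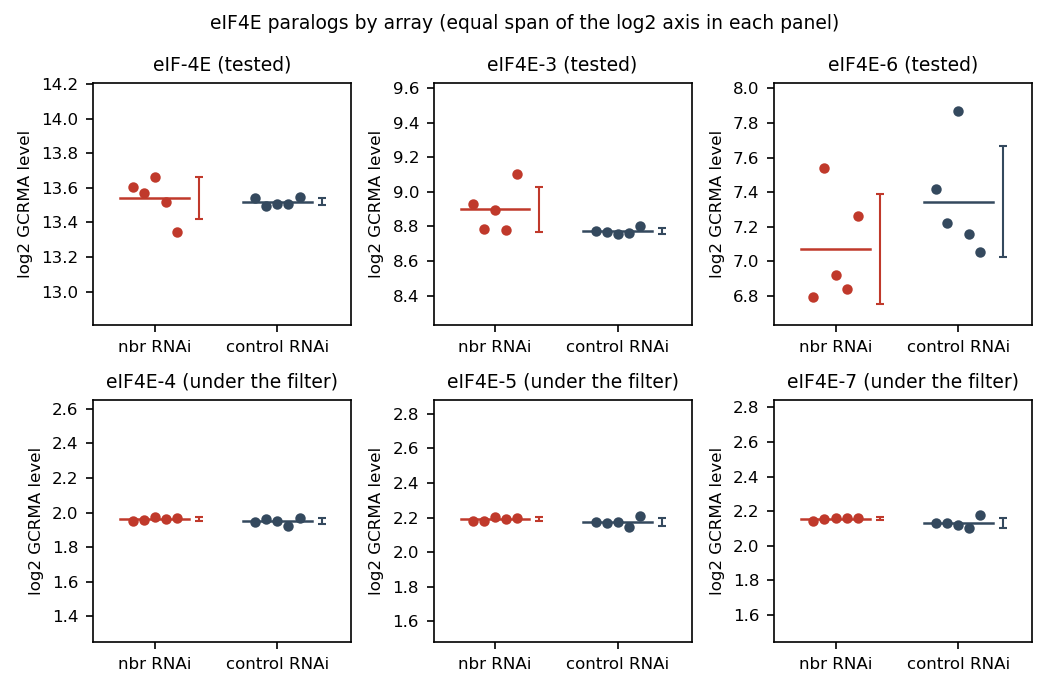
Log2 GCRMA level (y axis, an equal span of 1.4 in each panel but a different start) of the 6 eIF4E paralogs by treatment. Each point is 1 array, in the order 1 to 5 from left to right, the line is the mean of 5 arrays and the bar beside it ± 1 SD. eIF-4E, eIF4E-3 and eIF4E-6 lie above the filter with overlapping groups, and the other 3 paralogs stay between 1.92 and 2.21 on all arrays.

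The scaffold and helicase cofactor genes of the cap complex were far lower on nbr RNAi array 5 than on any other array. They are described array by array because of that pattern, which was seen in the values. eIF4G, the scaffold that joins eIF4E, eIF4A and eIF3, read 13.91, 13.97, 13.93, 13.94 and 13.34 on nbr RNAi arrays 1 to 5, against 13.88, 13.84, 13.75, 13.73 and 13.91 on control RNAi arrays 1 to 5. Relative to nbr RNAi arrays 1 to 4, array 5 deviated by -0.60, and arrays 2 to 4 lie above every control array. Over all arrays the log2 fold change of eIF4G was -0.0070 with a 95% interval of -0.26 to 0.25 (limma, adjusted p = 0.995). Without array 5 it was 0.11, its interval 0.010 to 0.22, and the gene missed the threshold (limma, unadjusted p = 0.0353, adjusted p = 0.481). In that fit 1 of 24 genes had an unadjusted p under 0.05, against 10% of all probe sets tested, and 0 of 24 were called, against 0.0388%.

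eIF4G2, a second eIF4G gene known from spermatogenesis in the fly, read 12.81, 12.98, 12.76, 12.69 and 11.80 on nbr RNAi arrays 1 to 5, against 12.97, 12.76, 12.71, 12.73 and 12.87 on control RNAi arrays 1 to 5. Array 5 deviated by -1.01 from the mean of nbr RNAi arrays 1 to 4, which cover about the control range. The log2 fold change was -0.20 with a 95% interval of -0.62 to 0.23 (limma, adjusted p = 0.905), and 0.0030 without array 5. A probe set annotated to both CG33111 and eIF4G2, which is not counted among the 27, was at -0.42 with an interval of -0.90 to 0.056. Without array 5 this probe set was at -0.30, and nbr RNAi array 4, at 6.78, was about as low as array 5, at 6.75.

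eIF-4B, the RNA-binding cofactor of eIF4A, has 4 probe sets, and all 4 were lowest on nbr RNAi array 5. The brightest read 14.47, 14.55, 14.48, 14.48 and 14.20 on nbr RNAi arrays 1 to 5, against 14.48, 14.44, 14.42, 14.47 and 14.47 on control RNAi arrays 1 to 5. Its log2 fold change was -0.021 with a 95% interval of -0.16 to 0.12 (limma, adjusted p = 0.975), and 0.039 without array 5. The dimmest read 11.75, 11.82, 12.02, 11.76 and 10.50 on nbr RNAi arrays 1 to 5, against 12.01, 11.71, 11.33, 12.05 and 12.11 on control RNAi arrays 1 to 5. Here control array 3 is also low, with a deviation of -0.64 from the other control arrays, and nbr RNAi array 5 deviates by -1.34 from nbr RNAi arrays 1 to 4. Its log2 fold change was -0.27 with an interval of -0.88 to 0.34. The other probe sets were at -0.040 and -0.081, so all 4 were below 0 over all arrays. Without nbr RNAi array 5 the dimmest was at -0.0043 and these other probe sets, in the same order, at 0.034 and 0.039. Neither the shared sign nor the difference in size held without that array.

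**Figure D3:**
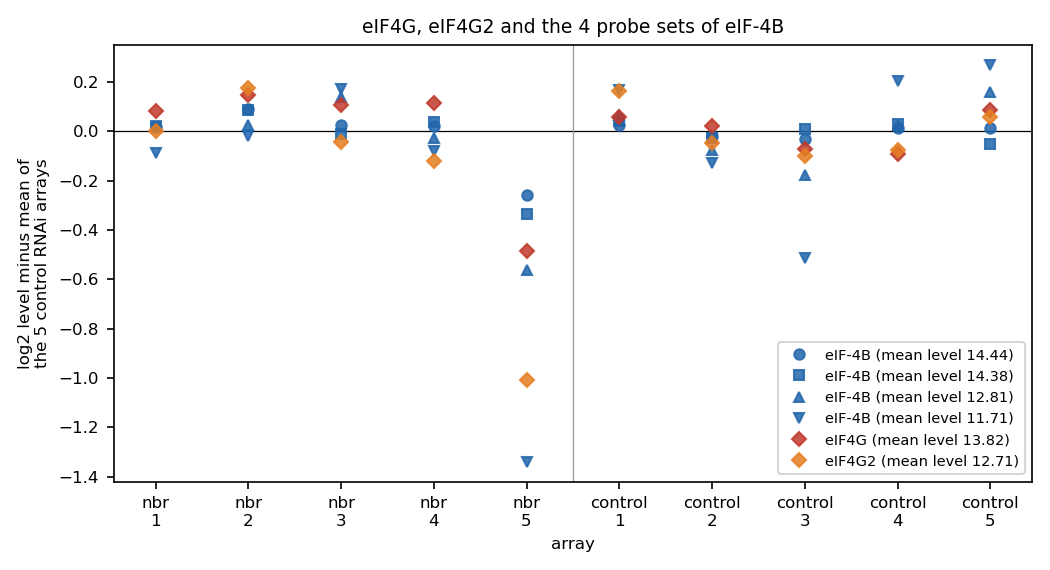
Log2 level minus the mean of the 5 control RNAi arrays (y axis) on each array (x axis) for eIF4G, eIF4G2 and the 4 probe sets of eIF-4B, whose mean levels over 10 arrays are given in the legend. All 6 probe sets are at their lowest on nbr RNAi array 5, and the dimmest eIF-4B probe set is also low on control array 3.

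Of the factors outside these complexes none passed, and eIF5 was also low on nbr RNAi array 5. eIF5, which stimulates GTP hydrolysis by eIF2, deviated there by -0.36 from nbr RNAi arrays 1 to 4, and its log2 fold change was -0.039 over all arrays and 0.033 without array 5. eIF-1A, which acts in scanning, was at -0.0092 with a 95% interval of -0.099 to 0.080. eIF5B, which joins the ribosomal subunits, had an interval of -0.094 to 0.094. eIF6, which keeps the large subunit from joining too early, was at -0.036 and at -0.081 without array 5. eIF4AIII, an eIF4A relative in the exon junction complex, was at 0.018 and was highest on nbr RNAi array 5, without which it was at -0.029. eIF-5A, the hypusine-bearing factor that RefSeq now names eEF5 for its part in elongation, read 15.15 to 15.19 in nbr RNAi and 15.17 to 15.21 in control RNAi, and 4 of 5 nbr RNAi arrays were below every control array. Its log2 fold change was -0.018 with an interval of -0.086 to 0.050 (limma, adjusted p = 0.956; 2-sided exact permutation p = 0.0714).

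The share of initiation factor genes with an extreme value on nbr RNAi array 5, lowest and highest together, was close to that of all probe sets. Of the 24 genes, 7 had their lowest value of all 10 arrays there (29.2%, against 20.3% of all probe sets tested). Another 6 had their highest there (25%, against 33.1%). Together these were 54.2%, against 53.5% of all probe sets tested. All 5 eIF2B genes were above the mean of nbr RNAi arrays 1 to 4 there, as were 4735 of all 7729 probe sets tested. Of the 7 eIF4 genes, eIF4G, eIF4G2, eIF-4B and eIF-4E were below it and eIF4E-3, eIF4E-6 and eIF-4a above it, by 0.26, 0.24 and 0.027. Of the 5 eIF3 genes, 3 were below and 2 above, and the groups were not tested against each other. The sign of the log2 fold change turned for 6 of 24 genes when that array was left out, and 13 of 24 turned without one or another array.

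**Figure D4:**
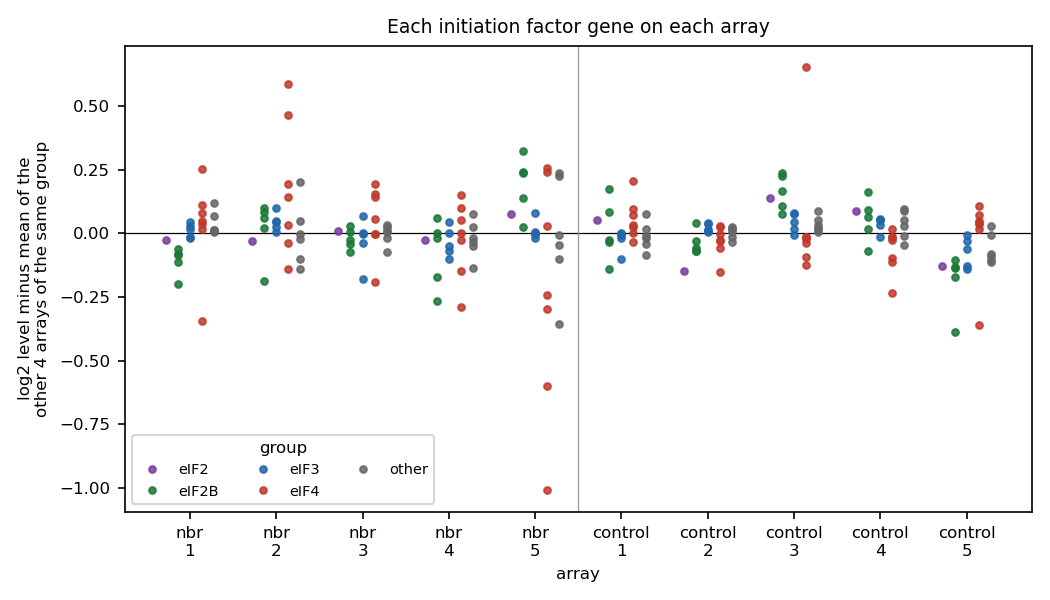
Log2 level on each array minus the mean of the other 4 arrays of the same treatment (y axis) for the 24 tested initiation factor genes, coloured by group. On nbr RNAi array 5 the 5 eIF2B genes lie above 0 while the eIF4 genes reach -1.01, and on control array 3 the high point at 0.65 is eIF4E-6.

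Partners and regulators of initiation also did not pass. Of 44 such genes measured by a single-symbol probe set, 37 were tested and 7 were under the filter. Limma called 0 of 37 at an adjusted p under 0.05 and 0 had an unadjusted p under 0.05, and the unmoderated test also called 0, against the shares of all probe sets given above. The median log2 fold change was -0.018, with 25 below 0, against 47.1% of all probe sets tested. The 95% interval lay within a 1.2-fold change for 29 of 37, against 62.6% of all probe sets tested, and within 1.5-fold for 35 of 37, against 92.9%. Thor, the fly 4E-BP, and pAbp matched no probe set with a single symbol and were not analysed here.

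Lk6, the kinase of eIF4E, had the smallest p of these genes. It read 13.47, 13.46, 13.43, 13.44 and 13.18 on nbr RNAi arrays 1 to 5, against 13.49, 13.46, 13.55, 13.47 and 13.47 on control RNAi arrays 1 to 5. The groups overlap and nbr RNAi array 5 stands lowest. Over all arrays the change was, on the log2 scale, -0.095 with a 95% interval of -0.22 to 0.035 (limma, adjusted p = 0.873). Its 2-sided exact permutation p was 0.0159 unadjusted, the only one under 0.05 among the 37 genes (2.7%), with no share over all probe sets given. Without array 5 the log2 fold change of Lk6 was -0.041.

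Partner genes deviated in both directions on nbr RNAi array 5, by over 0.2 for 37.8% of the 37, against 46.0% of all probe sets tested. The deviation exceeded 0.5 for 4 of 37 (10.8%), against 12.8% of all probe sets tested with both directions counted, and all 4 were downward. These were CG17514 at -1.33, Paip2 at -0.97, CG11148 (Gyf in RefSeq) at -0.78 and Tor at -0.56. Among smaller deviations, Rbp2 (eIF4H1 in RefSeq) and ligatin (eIF2D in RefSeq) were high there, by 0.43 and 0.37. The RNA helicase gene bel and the eIF4E-binding gene CG2950 (mxt) were also high, by 0.36 and 0.31. Both eIF2 kinase genes were low. PEK, the kinase of the endoplasmic reticulum, read 9.91 to 10.29 on the nbr RNAi arrays, lowest on array 5, and 9.88 to 10.14 on the control RNAi arrays. Its groups overlap, with a log2 fold change of 0.098 and a 95% interval of -0.072 to 0.27 (limma, adjusted p = 0.885), and 0.15 without array 5. Gcn2, the kinase of amino acid shortage, read 11.62, 11.72, 11.72, 11.69 and 11.27 on nbr RNAi arrays 1 to 5, against 11.51, 11.61, 11.48, 11.29 and 11.76 on control RNAi arrays 1 to 5. nbr RNAi array 5 is below all arrays of both groups, and the log2 fold change was 0.071 with an interval of -0.16 to 0.30, or 0.15 without that array. NAT1, an eIF4G relative, was at -0.033 over all arrays and 0.048 without array 5, where it deviated by -0.41 from nbr RNAi arrays 1 to 4. cup, which holds eIF4E in a repressed complex, was at 0.011 with an interval of -0.10 to 0.12. The log2 fold change of ligatin was -0.12, or -0.19 without array 5, and that of the elongation factor gene Ef1alpha48D was 0.061.

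The header of the authors' deposited table names its comparison tmr against Renilla, and for 18951 of 18952 probe sets the fold there equals that of the nbr arrays over the control arrays within 0.1%. In the authors' deposited table no initiation factor gene had a p-value under 0.05. The lowest in the authors' deposited table were 0.0684 for eIF-5A, 0.0699 for eIF4E-3 and 0.0708 for eIF-4a, and the authors' fold changes of these genes were -1.01, 1.09 and 1.02. In the RefSeq annotation, 14 of the 27 genes overlap another gene (51.9%, against 51.7% of the 6530 tested named genes), among them all 5 eIF2B genes and 2 of the 10 eIF4 genes. Whether a probe set also detects the overlapping gene was not tested.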

How the data were processed

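Per the labels' protocols, cDNA from total RNA was amplified (Ovation Pico WTA) and biotin-labelled. The authors deposited log2 levels, 1 per probe set. The submitters' processing notes name GCRMA and Partek, without the order of steps. All 189520 levels were identical in the value table and in the authors' deposited statistics table, which adds, per the file headers, a signed fold change, a p-value and a score. Of these the fold and p-value are quoted as the authors' own. The number of arrays limits the precision.

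The 7729 non-control probe sets averaging at least 4 over the 10 arrays entered one limma fit (version 3.58.1, R 4.3.3, lmFit and eBayes, no covariates) of nbr RNAi minus control RNAi. Benjamini-Hochberg adjustment ran over all of them, with a threshold of 0.05. Single values were compared by 2-sided exact permutation tests. Other filters, scalings, array weights, a replicate block and each array left out were tried. Genes were taken by the file's symbols, and current names and neighbours come from RefSeq.

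The members, the partner list and the marker lists were chosen with earlier results of these data known. Values of every array are given for nbr, the detected eIF4E paralogs, the 2 members of each complex with the smallest p and selected partners. eIF-4a, eIF4G, eIF4G2 and eIF-4B were added after their values were seen. Replicate numbers did not pair the arrays. No sequences are printed.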

Additional observations from a re-analysis of the deposited data

Results flagged for a closer look

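A value far from the other 4 arrays of its treatment, by the Dixon criterion, which chance meets in about 1 of 20 sets, was found in 4 of 48 sets of the 24 initiation factor genes. In nbr RNAi it was found for 3 of 24 genes (12.5%), against 15.5% of all probe sets tested, and in control RNAi for 1 of 24, against 6.08%. On nbr RNAi array 5 the share was 12.5% of these genes, against 12.3% of all probe sets tested. Of the 37 partners 10 had such a value in nbr RNAi and 0 in control RNAi, and those among the 9 partners picked by name or smallest p are given here. On nbr RNAi array 5 eIF4G read 13.34 (other nbr RNAi arrays 13.91 to 13.97), eIF4G2 read 11.80 (12.69 to 12.98) and eIF-4B read 14.20 (14.47 to 14.55). Of the partners, Lk6 read 13.18 (13.43 to 13.47), NAT1 13.38 (13.70 to 13.82) and Gcn2 11.27 (11.62 to 11.72) on that array. cup read 12.40 on nbr RNAi array 4 (12.22 to 12.27). In control RNAi, eIF2B-epsilon read 11.69 on array 3 (11.42 to 11.48). The part of array quality in these values was not tested.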

How the results depend on the processing

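No initiation factor gene and no partner gene was called by limma or by the unmoderated test under any alternative run, including a threshold of 0.1 for the initiation factor genes, and nbr was called under all of them, at -3.32 to -2.998 when an array was left out. With the replicate number as a block the count of initiation factor genes called was also 0, and nbr stayed at -3.16. Same-numbered arrays deviated together in 2 of 5 pairs (correlations across probe sets from -0.47 to 0.18), so the block is given only here. With array weights 2 of 24 initiation factor genes, eIF4E-3 and eIF4E-6, had an unadjusted p under 0.05, against 0 without weights. Of all 7729 probe sets tested, 901 reached it with weights and 454 without. When an array was left out, the count of initiation factor genes ran from 0 to 2. It was reached by eIF4E-3 and eIF4E-6 without nbr RNAi array 2 (482 of all 7729). Without nbr RNAi array 4 it was reached by eIF4E-3 (451 of all 7729) and without nbr RNAi array 5 by eIF4G (775). Without control array 2 it was reached by eIF-2beta (414 of all 7729). With these numbers over all probe sets, the counts single out no gene. The medians of the list and of the complexes moved by less than the spread between arrays. Several log2 fold changes changed sign, none of them called, and all but that of eIF4G2 (-0.20 over all arrays) were near 0. With array weights eIF-4B was at 0.029, eIF4G at 0.080, eIF4AIII at -0.015, eIF5 at 0.0013 and eIF5B at 0.030, and after quantile normalization eIF-5A was at 0.0073. When an array was left out, the ranges that include 0 were -0.032 to 0.0082 for eIF-1A, -0.018 to 0.0039 for eIF-3p40, -0.049 to 0.039 for eIF-4B, -0.011 to 0.069 for eIF-4E, -0.093 to 0.029 for eIF2B-delta, -0.043 to 0.033 for eIF2B-epsilon, -0.030 to 0.034 for eIF3-S10, -0.00092 to 0.039 for eIF3-S8, -0.029 to 0.046 for eIF4AIII, -0.046 to 0.11 for eIF4G, -0.29 to 0.0030 for eIF4G2, -0.079 to 0.033 for eIF5 and -0.024 to 0.020 for eIF5B. The cause was not tested. For the 3 paralogs with a mean below 4, these arrays set no bound on a difference.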
